A study of Mus musculus with 38 samples.

Results

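The IGF binding proteins are the 7 secreted proteins IGFBP1 to IGFBP7, and their mRNAs, Igfbp1 to Igfbp7, were followed in the livers of mice that lacked the insulin receptor, or both the insulin receptor and FoxO1, in hepatocytes. The members were taken by gene symbol, 7 of the 22485 genes measured, and each was read from its probe of highest mean signal. Only Igfbp2 had 2 probes, and the other members had 1 each. IGFBP1 to IGFBP6 bind insulin-like growth factors in blood and tissue and so set how much of these hormones reaches the IGF1 receptor, while IGFBP7 binds them weakly. The liver makes most circulating IGF1 and much of IGFBP1 and IGFBP2. Insulin is known to repress Igfbp1 in hepatocytes by way of Akt, which keeps the transcription factor FoxO1 out of the nucleus, so Igfbp1 is a usual readout of hepatic insulin action.

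All mice were males of 11 to 12 weeks from a mixed FVB/N-C57Bl/6 background. LIRKO mice carried floxed insulin receptor alleles and albumin-Cre, a recombinase driven by the albumin promoter and so active in hepatocytes, and LIRFKO mice carried floxed insulin receptor and floxed FoxO1 alleles with the same Cre. Controls were IR floxed mice for the first line and IR/FoxO1 floxed mice for the second. Mice were fasted, fasted and refed for 6 h, or fasted and treated with glucose 60 min before collection, and the labels call the fast both overnight and 24 h. IR floxed mice numbered 4 fasted, 4 refed and 3 glucose-treated. LIRKO mice numbered 3, 4 and 3, LIRFKO mice 3, 4 and 3, and IR/FoxO1 floxed mice 3 fasted and 3 refed, with no glucose group. Each liver came from a separately numbered mouse, and its RNA was read in 1 dye of a two-colour array. Single mice are given by title, with IR.fl and IRF.fl for the floxed lines, IR.KO for LIRKO, IRF.KO for LIRFKO and GTT for glucose. Values are the deposited log2 intensities, of which the lowest was 5.07, and values at the upper end of the scanner scale, from 15.81 upward among the members, were taken as the top of the measurable range.

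The albumin-driven deletion was visible in the arrays. Insr, the insulin receptor, was lower in LIRKO than in IR floxed livers in the 3 states (-1.76 ± 0.23 fasted, -1.51 ± 0.21 refed and -1.19 ± 0.24 after glucose). Foxo1 lay between 6.07 and 7.12 in the 10 LIRFKO livers. It lay between 9.14 and 10.9 in all others except the fasted IR/FoxO1 floxed mouse IRF.fl_Fast_523, where Foxo1 read 6.77 and Insr 6.90, against its label. Summed hepatocyte markers (8 of 8 measured) lay between 18.17 and 18.53 log2 in the floxed and LIRFKO livers. They reached lower in LIRKO livers, at 18.09 to 18.37 fasted, 17.34 to 18.23 refed and 17.54 to 18.18 after glucose. With a highest array value of 16, sums this high need several markers near the top of the range, where differences can be compressed. Against IR floxed, 1, 2 and 3 of the 8 markers were called lower in LIRKO in these states and none higher, with medians of -0.12, -0.14 and -0.76, and their part in the members' differences was not tested. Changes are differences of group means in log2 ± SE from one limma fit of all 37 livers, adjusted for dye, and called at a Benjamini-Hochberg adjusted p under 0.05 over all genes. These are bulk livers, in which fewer cells of a type and less RNA per cell cannot be told apart.

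The region just upstream of Igfbp1 is shown because it is the classic insulin response region, and those of Igfbp2 because Igfbp2 changed alongside Igfbp1. All are the 250 bases before an annotated transcript start (RefSeq, GRCm38.p6), on the plus strand, at chr11:7197537-7197786 for Igfbp1 and at chr1:72824230-72824479 and chr1:72825137-72825386 for the 2 starts of Igfbp2. Capitals mark the insulin response element cores, TGTTTTG and TATTTTG, in either orientation.
Igfbp1: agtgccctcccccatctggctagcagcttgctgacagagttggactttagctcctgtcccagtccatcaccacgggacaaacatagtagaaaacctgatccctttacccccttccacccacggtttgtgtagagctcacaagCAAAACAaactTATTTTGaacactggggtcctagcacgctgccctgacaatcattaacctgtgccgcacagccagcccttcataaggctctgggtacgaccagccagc
Igfbp2, first start: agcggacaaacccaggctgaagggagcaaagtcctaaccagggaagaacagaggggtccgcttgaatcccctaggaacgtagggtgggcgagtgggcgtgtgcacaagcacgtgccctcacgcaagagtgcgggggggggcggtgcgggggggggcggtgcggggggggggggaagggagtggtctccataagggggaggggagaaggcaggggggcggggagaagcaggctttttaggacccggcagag
Igfbp2, second start: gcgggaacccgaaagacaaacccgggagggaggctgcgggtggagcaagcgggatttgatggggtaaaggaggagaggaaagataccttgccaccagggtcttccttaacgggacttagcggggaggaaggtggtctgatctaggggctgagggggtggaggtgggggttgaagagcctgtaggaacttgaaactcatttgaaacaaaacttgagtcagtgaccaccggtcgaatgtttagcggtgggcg
The Igfbp1 window held both cores. TGTTTTG was read on the opposite strand, as CAAAACA, starting 108 bases before the transcript start, and TATTTTG stood on the gene's own strand, starting 97 bases before it. Of 32851 promoter windows of the same length, 5.56% held TGTTTTG and 3.95% held TATTTTG on either strand, and 0.381% held both. The forkhead motif GTAAACA, present in 3.17% of windows, was in none of the 8 windows of the 7 members, and the 7 windows of the members other than Igfbp1 held none of the 3 motifs. A match describes these letters only. In the RefSeq annotation Igfbp1 lies next to Igfbp3, and Igfbp2 next to Igfbp5, in each case on opposite strands with no gene between them.

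Igfbp1, the acutely regulated member, was high in fasted control livers and fell on refeeding. In IR floxed mice the fasted values were 12.82, 13.66, 14.54 and 14.41, and the refed values were 10.85, 10.23, 7.75 and 12.31. The groups did not overlap, although mouse IR.fl_Refed_566 at 12.31 was refed and close to the lowest fasted mouse. The change was -3.60 ± 0.69 (adjusted p = 0.00295). With only the compared groups in the fit it missed the threshold (-3.41, adjusted p = 0.112). Igfbp1 was the only member of 7 called in that comparison, in which 3.61% of all genes were called.

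In IR/FoxO1 floxed mice the fasted Igfbp1 values were 14.77, 12.79 and 12.48, and the refed values were 10.25, 10.42 and 10.24. The refed livers lay within 0.2 log2 of each other and below every fasted one. The change was -3.61 ± 0.78 (adjusted p = 0.00787). Again Igfbp1 was the 1 member of 7 called, beside 3.54% of all genes. Without mouse IRF.fl_Fast_523 the change was -3.62 ± 0.95 (adjusted p = 0.0412). It missed the threshold without fasted mouse IRF.fl_Fast_516 (adjusted p = 0.061) or without refed mouse IRF.fl_Refed_473 (adjusted p = 0.0516), and with no dye term in the fit (adjusted p = 0.0997).

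In LIRKO livers Igfbp1 sat at the top of the range in every state. The fasted livers read 15.90, 15.97 and 15.999, the refed livers 15.87, 15.94, 15.99 and 15.99, and the glucose-treated livers 15.90, 15.97 and 15.998. All 10 mice were above every mouse of the other genotypes. Whether refeeding or glucose changed Igfbp1 in LIRKO mice therefore cannot be read from these arrays, and every difference from LIRKO is a bound.

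The bounds were widest after refeeding, when the controls were low. Igfbp1 was at least 4.29-fold higher in fasted LIRKO than in fasted IR floxed livers (means 15.96 and 13.86, adjusted p = 0.0319). After refeeding it was at least 50.6-fold higher (means 15.95 and 10.29, adjusted p = 8.37e-07). After glucose it was at least 4.35-fold higher (means 15.96 and 13.83, adjusted p = 0.0294). These bounds are differences of the plain group means with no dye adjustment. They allow for the top of the range only, and not for the spread between mice. The adjusted p values belong to the dye-adjusted fit, with differences of 2.53 fasted, 5.88 refed and 2.71 after glucose. Their 95% intervals began at 1.01, 4.49 and 1.10 log2. The refed call held without any 1 mouse, whereas the fasted call was lost on leaving out any of 6 of the 7 mice (all but IR.KO_Fast_505, adjusted p up to 0.146), and the glucose call without mouse IR.fl_GTT_659, mouse IR.KO_GTT_667 or mouse IR.KO_GTT_690 (adjusted p up to 0.147). With no dye term both of these calls were lost (adjusted p = 0.14 and 0.184), and with only the compared groups the glucose call was (adjusted p = 0.507).

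In LIRFKO livers, which lack FoxO1 as well, Igfbp1 read below its lowest LIRKO value in every mouse, and the fasted livers were near the fasted controls. Fasted LIRFKO livers read 12.69, 14.71 and 13.01, inside the range of fasted IR floxed livers but for a small margin at each end. Refed LIRFKO livers read 12.82, 10.03, 12.45 and 11.61, of which 12.82 and 12.45 were above the highest refed control of either line (12.31). The livers at 12.82 and 12.45 were read in Cy5, as was that control, and the other refed LIRFKO livers in Cy3. These are values with no dye adjustment, and Igfbp1 read 1.19 ± 0.29 log2 higher in Cy5 than in Cy3. Glucose-treated LIRFKO livers read 9.20, 14.04 and 13.92. Mouse IRF.KO_GTT_725 was far below the others and below the lowest glucose-treated IR floxed mouse (12.42). It was read in Cy3 and the other mice of its group in Cy5. Against LIRKO, Igfbp1 was lower by at least 5.61-fold when fasted (means 13.47 and 15.96, adjusted p = 0.0106), at least 18.7-fold when refed (means 11.73 and 15.95, adjusted p = 6.6e-05) and at least 11.9-fold after glucose (means 12.38 and 15.96, adjusted p = 0.00149). These bounds are again of plain group means and do not allow for the spread between mice. The fitted differences, to which the adjusted p values belong, were -3.27 fasted, -4.51 refed and -4.11 after glucose. Their 95% intervals ended at -1.65, -3.11 and -2.50 log2. The glucose value rests on mouse IRF.KO_GTT_725, since without it the fitted difference was -2.35 (adjusted p = 0.132). The fasted call was lost without LIRFKO mouse IRF.KO_Fast_518 (adjusted p = 0.16) or LIRKO mouse IR.KO_Fast_550 (adjusted p = 0.114), and with no dye term (adjusted p = 0.115). With only the compared groups, the fasted and glucose calls were both lost (adjusted p = 0.137 and 0.0833).

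Set against their own floxed controls, LIRFKO livers gave no called Igfbp1 difference, and none of the 7 members was called when fasted (0.00445% of all genes called) or refed (0.378%). At an unadjusted p under 0.05 the counts were 0 and 3 of 7. The deleted genes themselves were not called in the fasted comparison (Insr -0.99 ± 0.25, adjusted p = 1; Foxo1 -2.44 ± 0.50, adjusted p = 0.254), which includes mouse IRF.fl_Fast_523, and were called in the refed one (Insr -1.56 ± 0.23, adjusted p = 0.00121; Foxo1 -3.00 ± 0.46, adjusted p = 0.00141). The fasted Igfbp1 difference was -0.44 ± 0.83, with a 95% interval from -2.15 to 1.26. The refed difference was 1.66 ± 0.77 (interval 0.09 to 3.24, adjusted p = 0.44), with 3 of the 4 refed LIRFKO mice above all 3 refed controls. The fasted value without mouse IRF.fl_Fast_523 was -0.45 ± 0.94.

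Refeeding in LIRFKO mice gave an Igfbp1 difference that missed the threshold (-1.50 ± 0.73, adjusted p = 0.37), and the fasted and refed mice overlapped. The difference of this response from that of IR/FoxO1 floxed mice was 2.11 ± 1.10 (interval -0.15 to 4.36, adjusted p = 1), so a smaller fall in LIRFKO was not shown. Glucose, 60 min earlier, left Igfbp1 near its fasted level in IR floxed mice, which read 12.42, 14.17 and 14.92 (0.00 ± 0.78, interval -1.61 to 1.61). In LIRFKO mice the glucose difference was -0.66 ± 0.77. Refeeding and glucose were both set against the same fasted mice, and the 2 genotype comparisons of LIRKO share the LIRKO mice.

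Of the 7 members, only Igfbp1 had a called dye term. Livers labelled with Cy5 read 1.19 ± 0.29 log2 higher for Igfbp1 than those labelled with Cy3 (adjusted p = 0.00833), while the dye terms of the other 6 members lay between -0.14 and 0.20 with none called. Groups held both dyes. LIRKO livers sat at the top of the range in either dye, so the fitted Igfbp1 differences carry a dye term estimated partly from values that cannot rise. The LIRKO groups had Igfbp1 SDs of 0.049 to 0.057, against a median SD of 1.08 over all groups. Because the fit shares 1 estimate of the spread over all groups, its SEs and p values for Igfbp1 may be too small.

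**Figure D1:**
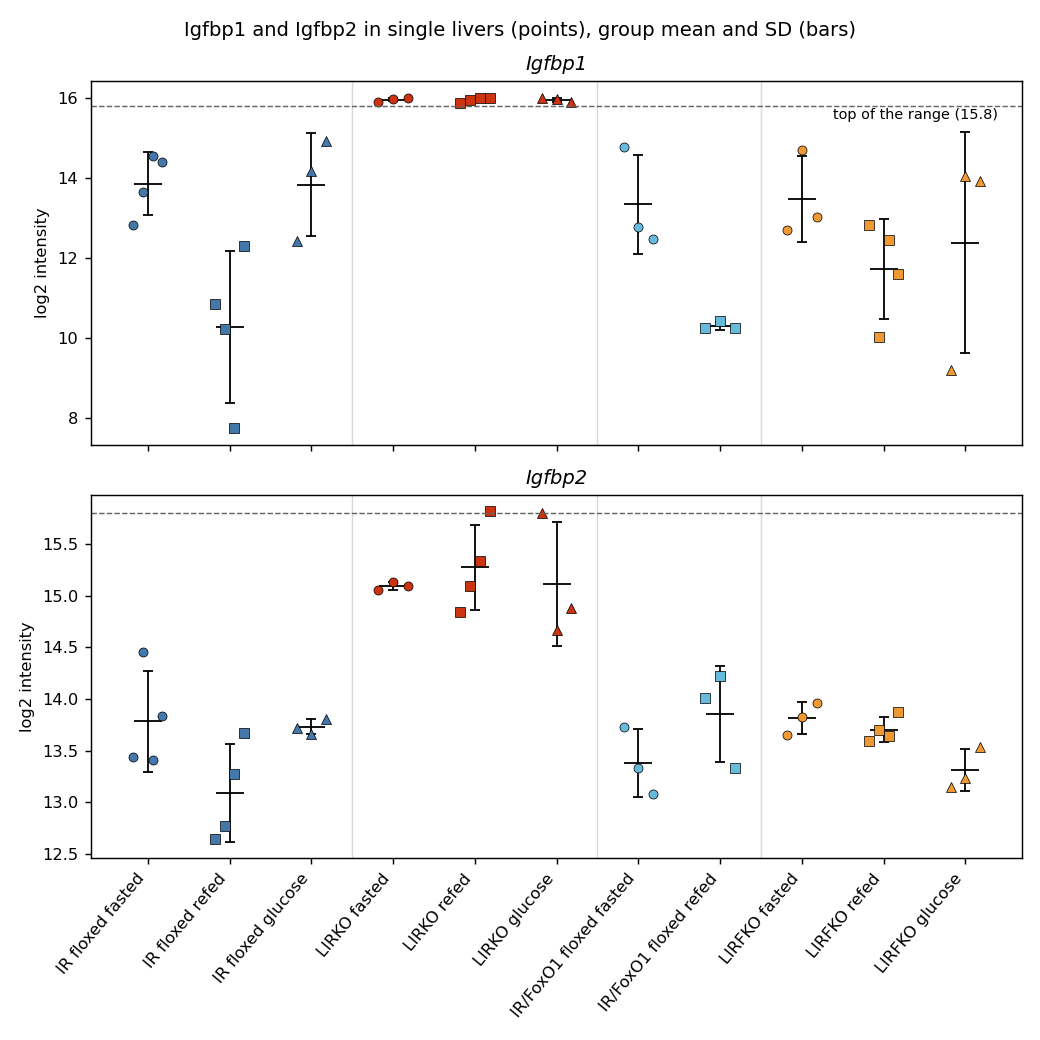
Log2 intensity of Igfbp1 (upper panel) and Igfbp2 (lower panel) in each of the 37 livers, by genotype and feeding state, with group mean and SD as bars and a dashed line at the top of the range. All 10 LIRKO livers lie above the line for Igfbp1, and the refed floxed controls, between 7.75 and 12.31, have the lowest group means.

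Igfbp2, an abundant serum binding protein made by hepatocytes, was the other member raised in LIRKO livers, in all 3 states, and the only one whose rise could be sized. Fasted LIRKO livers read 15.05, 15.13 and 15.09, against 13.44, 14.45, 13.41 and 13.83 in fasted IR floxed livers. The groups did not overlap, and the difference was 1.35 ± 0.24 (adjusted p = 0.000742). Igfbp1 and Igfbp2 were the 2 members of 7 called, both higher, where 8.06% of all genes were called.

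Refed LIRKO livers read 14.84, 15.09, 15.34 and 15.81, and refed IR floxed livers 12.64, 12.77, 13.27 and 13.67. Every LIRKO mouse was more than 1 log2 above every control, and mouse IR.KO_Refed_565 was at the top of the range. The difference was 2.12 ± 0.22 (adjusted p = 1.93e-07), and 2 of 7 members were again called, beside 11.6% of all genes. After glucose, LIRKO livers read 15.795, 14.66 and 14.88 and IR floxed livers 13.72, 13.66 and 13.81. The difference was 1.42 ± 0.26 (adjusted p = 0.000864), with 2 of 7 members called beside 8.3% of genes.

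In livers that lacked FoxO1 along with the receptor, Igfbp2 was lower than in LIRKO livers. LIRFKO livers read 13.65, 13.82 and 13.96 fasted, 13.60, 13.70, 13.64 and 13.87 refed, and 13.15, 13.24 and 13.54 after glucose. None of these 10 mice reached the lowest LIRKO mouse, at 14.66. Against LIRKO the differences were -1.32 ± 0.26 fasted (adjusted p = 0.00214), -1.61 ± 0.22 refed (adjusted p = 2.2e-05) and -1.79 ± 0.26 after glucose (adjusted p = 7.21e-05). Igfbp1 and Igfbp2 were the members called, 2 of 7 and both lower, in each state, where 6.52%, 8.09% and 7.57% of all genes were called. Against IR/FoxO1 floxed controls, Igfbp2 in LIRFKO differed by 0.49 ± 0.27 fasted (interval -0.07 to 1.05) and by -0.15 ± 0.25 refed (interval -0.66 to 0.37), neither called.

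The Igfbp2 calls between LIRKO and the other genotypes held without any 1 mouse, with differences from 1.05 to 2.31 above IR floxed and from -1.99 to -1.26 for LIRFKO. With only the compared groups in the fit, 3 of these 6 calls were lost at a like size, namely LIRKO against IR floxed when fasted (1.36, adjusted p = 0.0554) and after glucose (1.40, adjusted p = 0.294), and LIRFKO against LIRKO after glucose (-1.79, adjusted p = 0.0648). The second Igfbp2 probe gave 1.43 ± 0.27, 2.07 ± 0.25 and 1.39 ± 0.28 for LIRKO against IR floxed in the fasted, refed and glucose states. It gave -1.44 ± 0.29, -1.70 ± 0.25 and -1.68 ± 0.28 for LIRFKO against LIRKO. Both probes thus read the same direction at a like size. Its highest value was 15.47, below the top of the range.

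Loss of the receptor and FoxO1 together was set against loss of the receptor alone in 1 contrast. It was the LIRFKO difference from its floxed controls minus the LIRKO difference from its own. No group lacked FoxO1 alone, so the contrast also holds any effect of FoxO1 loss itself. When refed, the contrast was -2.27 ± 0.33 for Igfbp2 (adjusted p = 0.000175) and -4.22 ± 1.002 for Igfbp1 (adjusted p = 0.0286), 2 of 7 members called beside 1.32% of all genes. The Igfbp1 value sets LIRKO at the top of the range. It missed the threshold when any of 8 single mice was left out (adjusted p up to 0.132) and with slide as a fixed term (-3.85, adjusted p = 0.0695) or no dye term (adjusted p = 0.096). When fasted, the contrast was -0.86 ± 0.35 for Igfbp2 (adjusted p = 0.29) and -2.97 ± 1.05 for Igfbp1 (adjusted p = 0.21). No member was called there, beside 0.934% of genes, and 2 of 7 had an unadjusted p under 0.05. Without the mouse labelled IRF.fl_Fast_523 the fasted values were -0.82 ± 0.37 for Igfbp2 and -2.98 ± 1.13 for Igfbp1, and 0.574% of genes were called.

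Kupffer cell markers moved with genotype in the refed livers. In refed LIRKO against IR floxed, 8 of 9 markers were higher, with a median of 1.33 log2, and their summed level was 13.37 to 13.78 against 11.71 to 12.15. In refed LIRFKO against LIRKO 7 of 9 were lower. No Kupffer marker was called in fasted LIRKO against IR floxed (median 0.315) or in fasted LIRFKO against LIRKO (median -0.324). After glucose, 1 of 9 was higher in LIRKO than in IR floxed livers (median 0.452). Their summed levels were 12.59 to 13.21 in LIRKO and 11.62 to 12.35 in IR floxed livers. In LIRFKO against LIRKO after glucose none was called (median 0.062). The part of Kupffer markers in the members' differences was not tested.

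**Figure D2:**
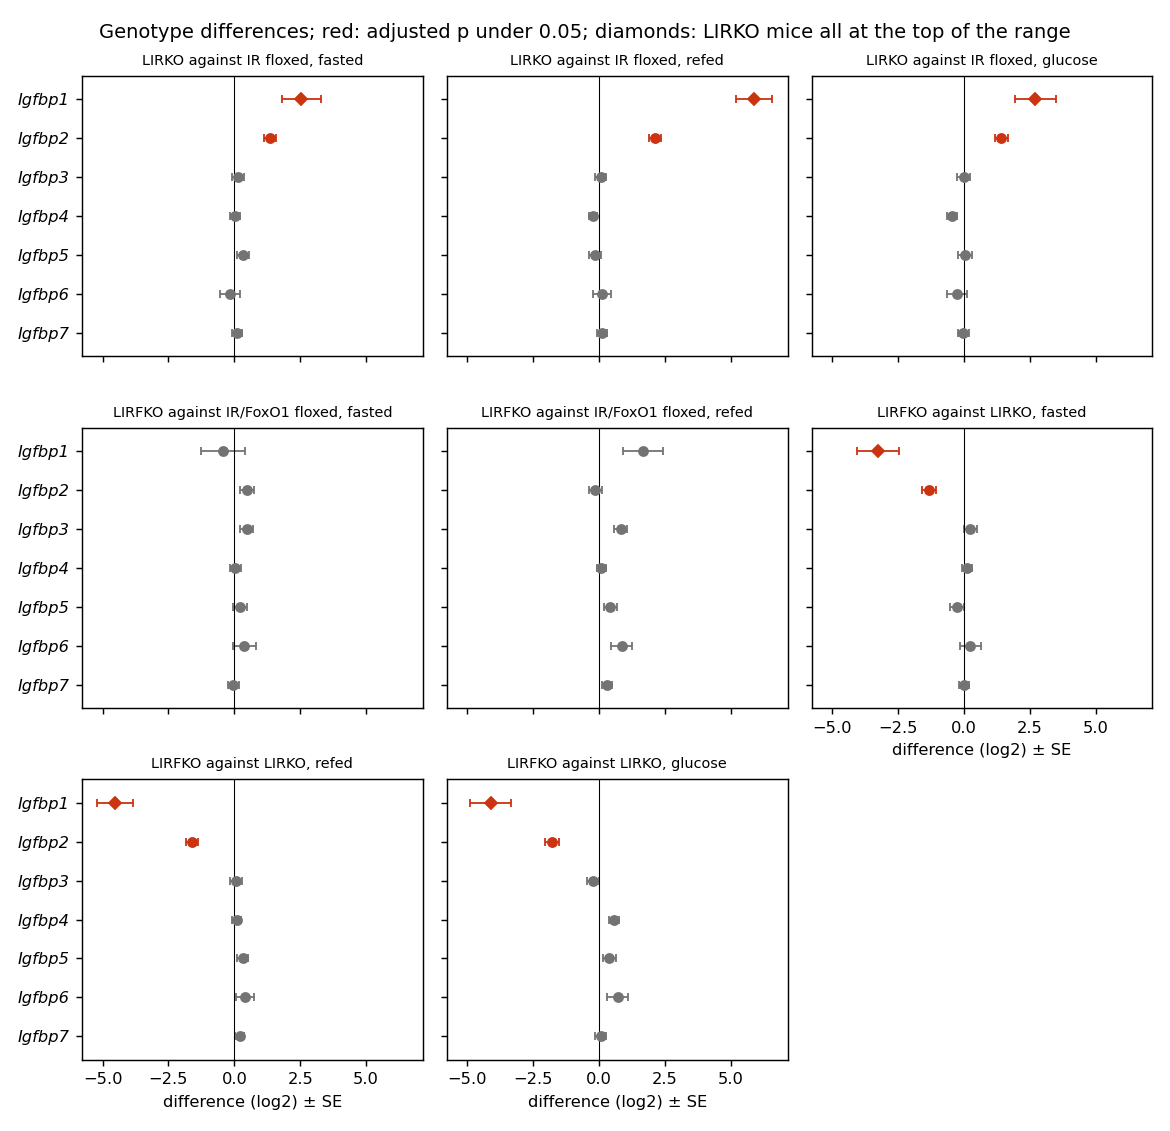
Difference in log2 ± SE of each member between genotypes in the fasted, refed and glucose states, from the limma fit. Red marks an adjusted p under 0.05 and diamonds mark Igfbp1 differences from LIRKO mice, which all sat at the top of the range. Only Igfbp1 and Igfbp2 are red, above 0 for LIRKO against IR floxed and below 0 for LIRFKO against LIRKO.

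Neither refeeding nor glucose gave a called change in Igfbp2. After glucose the differences were -0.09 ± 0.26 in IR floxed, -0.02 ± 0.27 in LIRKO and -0.49 ± 0.25 in LIRFKO mice. In LIRFKO every glucose-treated mouse (13.148 to 13.538) was below every fasted one (13.653 to 13.965). On refeeding the Igfbp2 differences were -0.65 ± 0.23 in IR floxed mice (adjusted p = 0.12), 0.47 ± 0.26 in IR/FoxO1 floxed mice, 0.13 ± 0.26 in LIRKO and -0.17 ± 0.24 in LIRFKO. None was called. The 2 floxed lines pointed opposite ways, and the difference of their responses was 1.11 ± 0.32 with an unadjusted p of 0.00197 and an adjusted p of 0.96. The refed IR/FoxO1 floxed values were 14.01, 14.22 and 13.33 and the fasted ones 13.73, 13.33 and 13.08, which overlap. Without mouse IRF.fl_Fast_523 the IR/FoxO1 floxed response was 0.53 ± 0.31, and its difference from the IR floxed one 1.17 ± 0.36. In LIRKO and LIRFKO mice 0 of 7 members were called on refeeding, beside 1.85% and 1.81% of all genes, and 0 and 1 of 7 had an unadjusted p under 0.05. None of the 4 differences between refeeding responses called a member. The share of all genes called was 0.165% for LIRKO minus IR floxed, 0.0222% for LIRFKO minus LIRKO, and 0.00445% for LIRFKO minus IR/FoxO1 floxed and for the 2 floxed lines. At an unadjusted p under 0.05 these 4 comparisons held 2, 0, 0 and 1 of the 7 members. Igfbp1 in LIRKO was at the top of the range in both states, so a change on refeeding could not be seen there. Its values in the differences that include LIRKO carry this limit, and it was among the 2 members for LIRKO minus IR floxed.

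**Figure D3:**
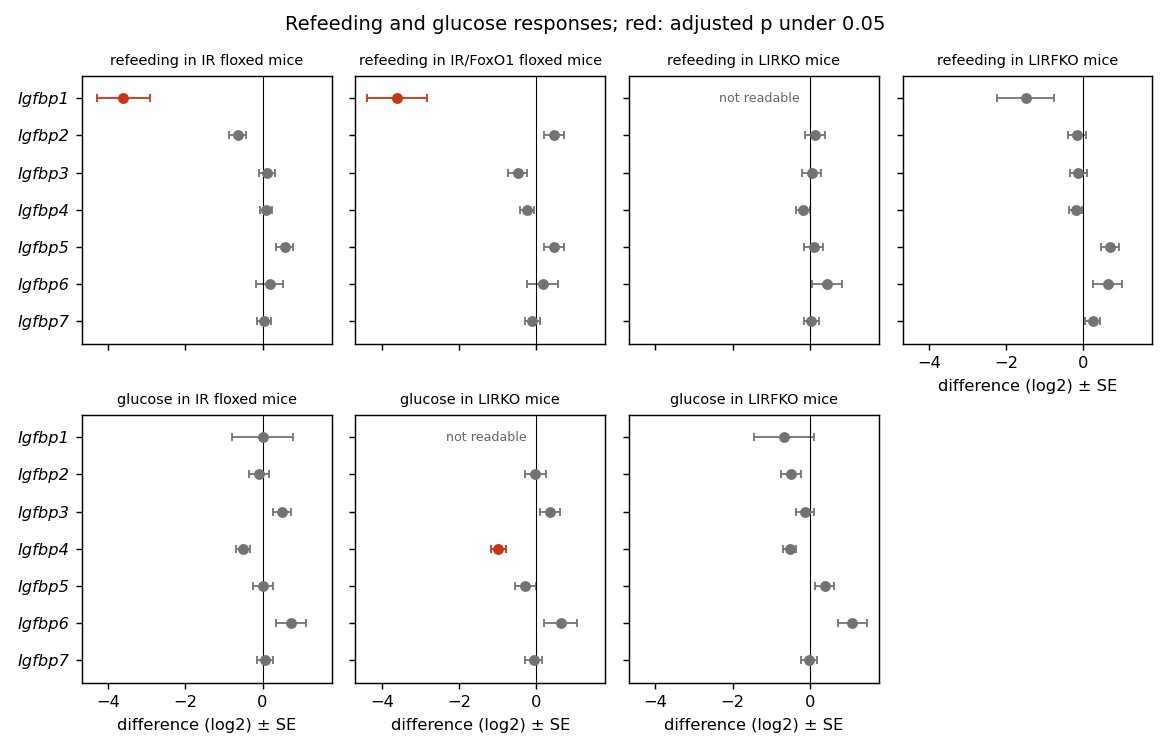
Difference in log2 ± SE of each member from fasted mice of the same genotype, after refeeding for 6 h (upper row) or glucose for 60 min (lower row). Red marks an adjusted p under 0.05: Igfbp1 after refeeding in both floxed lines, at -3.60 and -3.61, and Igfbp4 after glucose in LIRKO, at -0.98.

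Igfbp3 and Igfbp5 encode the carriers that join IGF1 and the acid labile subunit in the long-lived ternary complex of blood. In liver, Igfbp3 is known mainly from the non-parenchymal cells. Igfbp3 read from 6.12 to 8.19 over the 37 livers, near the median of 6.17 over all genes' means, and was called in none of the 24 comparisons. LIRKO differed from IR floxed by 0.14 ± 0.23 fasted, 0.07 ± 0.21 refed and -0.01 ± 0.24 after glucose. The intervals of these 3 differences reached at most 0.61 log2 in either direction.

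The largest Igfbp3 difference was between refed LIRFKO and refed IR/FoxO1 floxed livers. LIRFKO livers read 7.21, 6.95, 7.32 and 7.01 and controls 6.47, 6.68 and 6.12. The groups did not overlap, yet the difference of 0.82 ± 0.24 missed the threshold (adjusted p = 0.13). In the fasted state it was 0.47 ± 0.26 (adjusted p = 1). In the refed comparison the marker medians were 0.473 for stellate cells, 0.411 for Kupffer cells, 0.263 for portal fibroblasts and -0.009 for sinusoidal endothelium. Of these markers only 1 of the 6 for portal fibroblasts was called, higher, beside 0.378% of all genes. Their part in the Igfbp3 difference was not tested.

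Igfbp5 read from 5.94 to 7.29, also near the median of 6.17 over all genes' means. It was called in none of the 24 comparisons, and the 4 refeeding responses were 0.58 ± 0.22 in IR floxed, 0.47 ± 0.26 in IR/FoxO1 floxed, 0.10 ± 0.26 in LIRKO and 0.68 ± 0.24 in LIRFKO mice. In LIRFKO the refed mice read 7.21, 7.15, 7.29 and 6.68 and the fasted ones 6.11, 6.53 and 6.37, with no overlap (adjusted p = 0.15). In IR floxed mice the groups overlapped through fasted mouse IR.fl_Fast_491, which read 7.12, and without it the response was 0.86 (adjusted p = 0.0138). Averaged over the 4 genotypes, a comparison added after the values were seen, refeeding raised Igfbp5 by 0.46 ± 0.13 (adjusted p = 0.0179), and without mouse IRF.fl_Fast_523 by 0.54 ± 0.13 (adjusted p = 0.00533). It was 1 of 2 members of 7 called there, beside Igfbp1, where 13.7% of all genes were called. The Igfbp1 average includes LIRKO mice at the top of the range. In IR/FoxO1 floxed mice alone, the Igfbp5 response was 0.78 ± 0.29 without that mouse (adjusted p = 0.188).

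Igfbp4, an inhibitory binding protein that hepatocytes express and that the protease PAPP-A cleaves, was lower after glucose. LIRKO livers read 11.28, 10.56 and 10.67 after glucose and 11.79, 11.72 and 11.72 fasted. The groups did not overlap, and the difference was -0.98 ± 0.19 (adjusted p = 0.024), 1 of 7 members called beside 0.596% of all genes. None of the 8 hepatocyte markers was called there, but their median difference was -0.55, against 0.04 for glucose in IR floxed and -0.33 in LIRFKO mice, and their part in the Igfbp4 difference was not tested. The call was lost without fasted mouse IR.KO_Fast_505 (adjusted p = 0.0943) or mouse IR.KO_Fast_550 (adjusted p = 0.0778), or without glucose-treated mouse IR.KO_GTT_690 (-0.82, adjusted p = 0.217), and with only the compared groups in the fit (-0.91, adjusted p = 0.603).

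In the other genotypes Igfbp4 pointed the same way without a call. IR floxed livers read 11.20, 11.32 and 11.35 after glucose and 11.69, 12.11, 11.55 and 11.60 fasted (-0.51 ± 0.18, adjusted p = 0.37). LIRFKO livers read 11.41, 11.36 and 11.34 after glucose and 11.53, 11.92 and 12.25 fasted (-0.52 ± 0.18, adjusted p = 0.20). In both genotypes every glucose-treated mouse was below every fasted one. No member was called on glucose in IR floxed or LIRFKO mice, where 0.16% and 0.654% of all genes were called and 2 of 7 members each had an unadjusted p under 0.05.

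Whether Igfbp4 responded more in LIRKO was tested directly and not shown. The LIRKO response minus the IR floxed one was -0.47 ± 0.25 (interval -0.98 to 0.04, adjusted p = 0.76), in a comparison that called 0 genes. After glucose, Igfbp4 in LIRFKO was 0.57 ± 0.18 above LIRKO (adjusted p = 0.0526). Averaged over the 3 genotypes, again a comparison added after the values were seen, Igfbp4 was lower after glucose (-0.67 ± 0.11, adjusted p = 0.00195). It was the 1 member called beside 1.85% of all genes, and it stayed called without any 1 mouse, from -0.73 to -0.60. The 8 hepatocyte markers had a median of -0.302 there with none called, and their part in the Igfbp4 difference was not tested.

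Within the slides that held both states, the glucose-treated mice were lower for Igfbp4 in all 6 pairs of genotype and slide, with differences from -1.23 to -0.45. All mice given glucose carry higher numbers in their titles than all fasted mice, so glucose and whatever went with the mouse number cannot be told apart. On refeeding, Igfbp4 moved by -0.25 to 0.09 in the 4 genotypes with none called. Igfbp4 in LIRKO against IR floxed was 0.02 ± 0.17 when fasted.

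**Figure D4:**
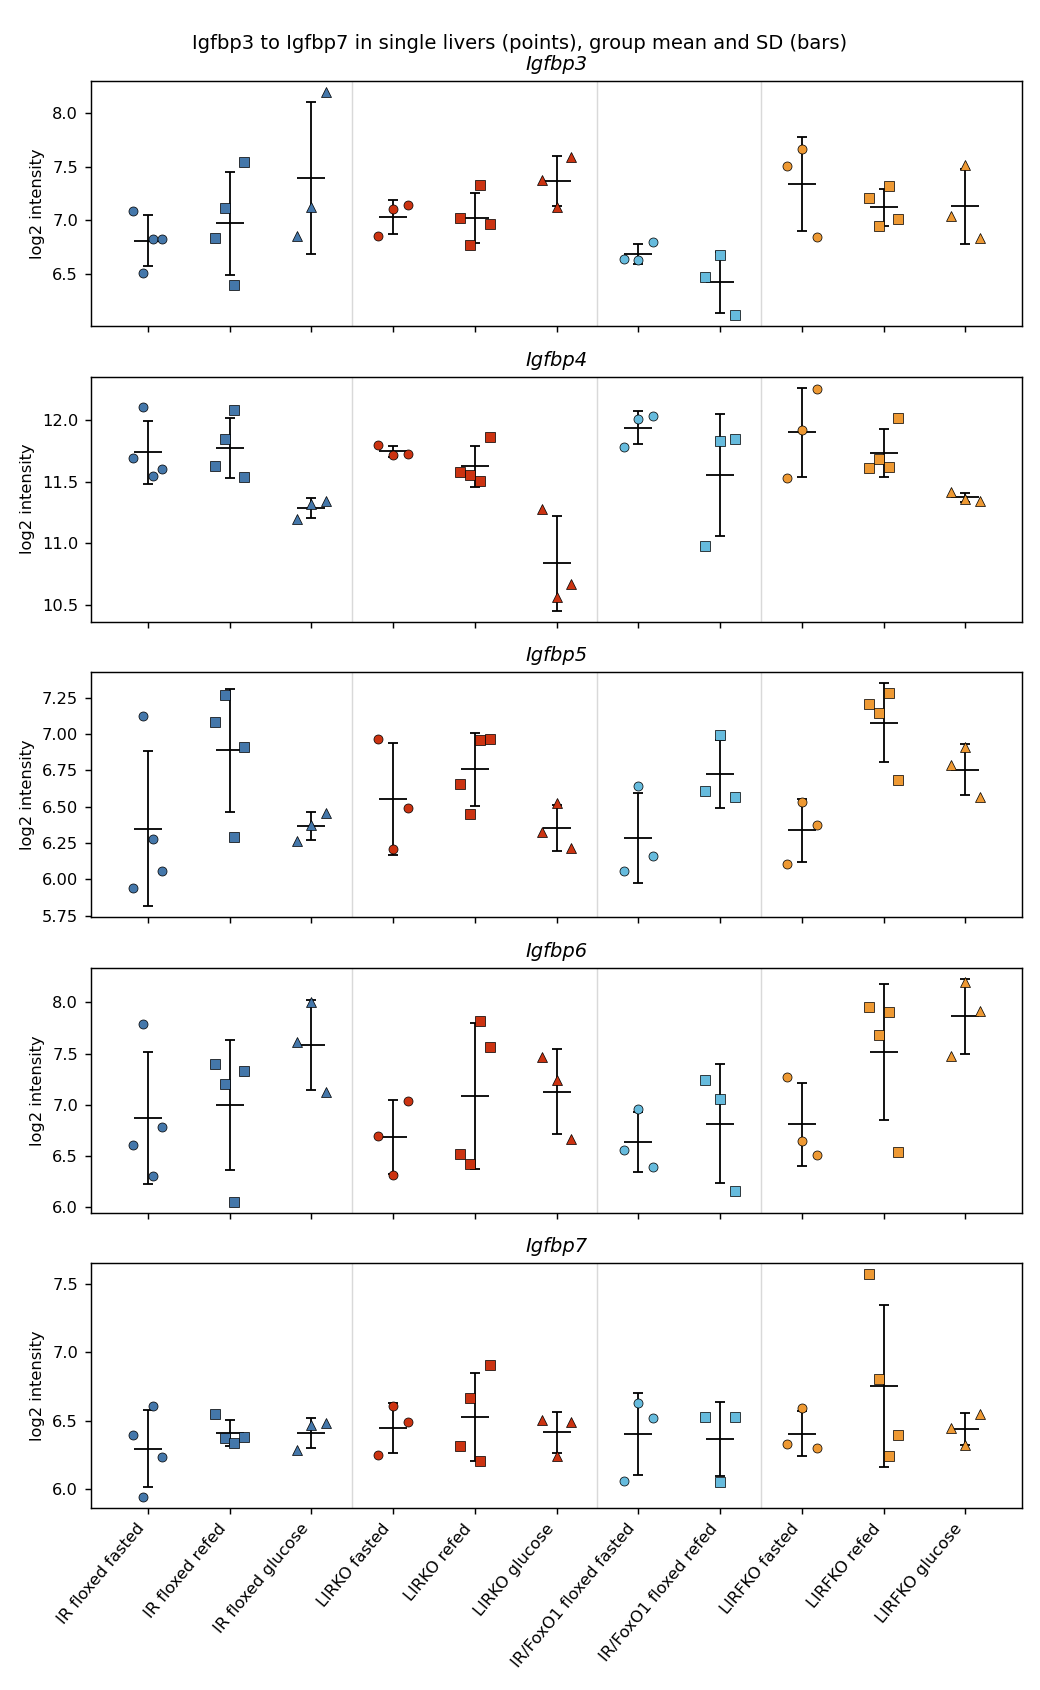
Log2 intensity of Igfbp3, Igfbp4, Igfbp5, Igfbp6 and Igfbp7 in each of the 37 livers, by genotype and feeding state, with group mean and SD as bars. Panels have separate vertical scales, and the glucose groups lie below the fasted groups for Igfbp4.

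Igfbp6, a binding protein that prefers IGF2, varied widely between mice of the same group. Group means ran from 6.64 to 7.86, and the SD within groups from 0.29 to 0.71. After glucose it read 7.47, 8.20 and 7.91 in LIRFKO mice against 7.27, 6.65 and 6.51 fasted, a difference of 1.11 ± 0.39 that was not called (adjusted p = 0.21). The glucose differences were 0.73 ± 0.39 in IR floxed and 0.63 ± 0.42 in LIRKO mice, and their average over the 3 genotypes was 0.82 ± 0.25 (adjusted p = 0.0884).

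Igfbp6 ran together with a marker of mesothelium, the sheet of cells that covers the liver surface. Over the 37 livers its Pearson r with Msln, the mesothelial surface protein mesothelin, was 0.91 and Spearman's rho was 0.91. Msln was also the gene most like Igfbp6 in these livers and its list was chosen with earlier results known, so these values are a description and carry no p. Without the 2 livers farthest from the median Msln level r was 0.90. Within the 5 slides, of 7 or 8 livers each, r ran from 0.91 to 0.99, it was 0.94 among Cy3 and 0.89 among Cy5 livers, and for deviations from the group means it was 0.87.

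The fasted IR floxed mouse IR.fl_Fast_491 shows the pattern in 1 group. It read 7.79 for Igfbp6 and 7.75 for Msln, whereas the other 3 mice of its group read 6.30 to 6.78 for Igfbp6 and 6.28 to 6.47 for Msln. Among the other mesothelial markers r with Igfbp6 was 0.72 for Wt1, 0.68 for Upk3b, 0.58 for Gpm6a and 0.19 for Lrrn4, all 4 of which read below 6.4 in every liver. The summed mesothelial level was 8.42 to 9.10 in glucose-treated and 7.97 to 8.24 in fasted LIRFKO livers, and Msln was 1.43 ± 0.39 higher there (adjusted p = 0.0823). Its part in the Igfbp6 difference was not tested.

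**Figure D5:**
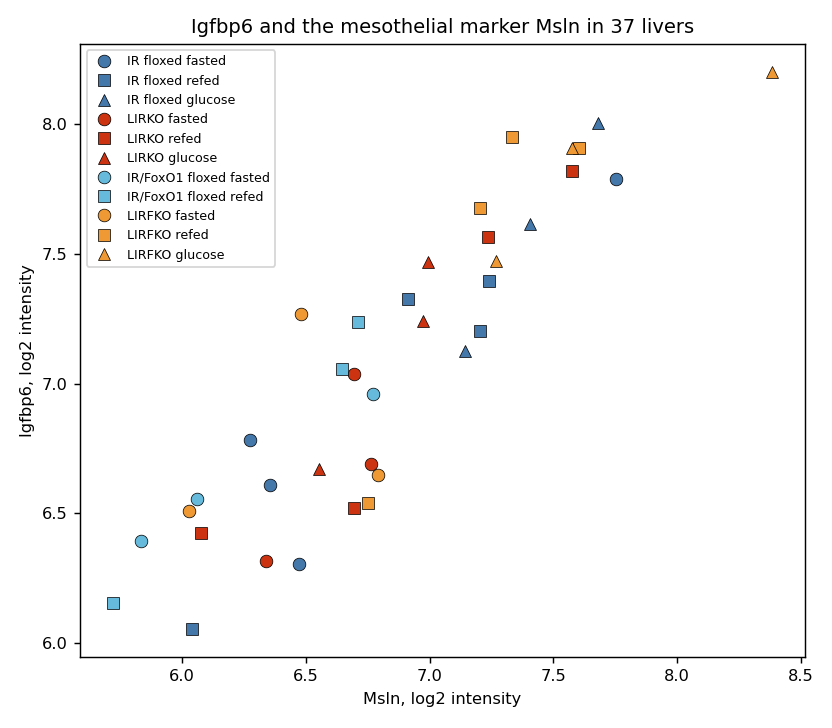
Igfbp6 against Msln, both as log2 intensity, in each of the 37 livers, coloured by genotype with the symbol giving the feeding state. Mice of every group lie along 1 rising band, from 6.05 for Igfbp6 in a refed IR floxed mouse to 8.20 in a glucose-treated LIRFKO mouse.

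Igfbp7, a secreted protein of vessel walls with low affinity for IGFs, had the narrowest range of group means. Its 11 group means lay within 0.46 log2 of each other, from 6.29 to 6.75. These levels were near the median of 6.17 over all genes' means, and detection calls were not used, so a small change could go unseen. No comparison called it. LIRKO differed from IR floxed by 0.11 ± 0.19 fasted, 0.11 ± 0.18 refed and -0.02 ± 0.20 after glucose. Refed LIRFKO mouse IRF.KO_Refed_468, at 7.57, was its highest value.

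No member passed the test between the 2 floxed lines. None of 7 was called between IR/FoxO1 floxed and IR floxed mice when fasted (0.0356% of all genes called) or refed (0.0845%), and 0 and 2 of 7 had an unadjusted p under 0.05. The 2 were Igfbp2, at 0.66 ± 0.24 (adjusted p = 0.59), and Igfbp3, at -0.69 ± 0.23 (adjusted p = 0.49), both when refed.

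The 11 group means order the members differently. For Igfbp1 the 3 LIRKO groups came first, at 15.95 to 15.96, then fasted and glucose-treated IR floxed mice at 13.86 and 13.83. Fasted LIRFKO and fasted IR/FoxO1 floxed mice followed at 13.47 and 13.35, then glucose-treated and refed LIRFKO mice at 12.38 and 11.73, with the refed floxed lines last at 10.30 and 10.29. Only the step below LIRKO separated neighbouring groups without overlap of single mice. For Igfbp2 the 3 LIRKO groups also came first, at 15.09 to 15.27, and the other 8 lay between 13.09 and 13.86. Group means spanned 1.10 log2 for Igfbp4, 0.97 for Igfbp3 and 0.79 for Igfbp5.

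The rest of the IGF axis is given by 25 genes, among them the ligand Igf1. It read from 13.19 to 13.90 in fasted IR floxed livers and from 10.67 to 12.05 in fasted LIRKO livers. It fell in LIRKO against IR floxed, with differences of -2.41 ± 0.27 fasted, -2.74 ± 0.25 refed and -2.45 ± 0.29 after glucose (adjusted p = 1.58e-06, 1.54e-08 and 4.52e-06). In LIRFKO against LIRKO it was higher by 2.52 ± 0.29, 2.59 ± 0.25 and 2.43 ± 0.29 (adjusted p = 2.34e-06, 5.15e-08 and 3.86e-06). So Igf1 fell where Igfbp1 and Igfbp2 rose and the reverse, in comparisons that share the same mice. Igf2, the fetal ligand, had group means of 5.40 to 5.54, at the bottom of the range.

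Igfals, the acid labile subunit that holds the ternary complex in blood, moved with Igf1 between genotypes. On refeeding in IR/FoxO1 floxed mice Igfals was called higher (1.31 ± 0.37, adjusted p = 0.0441) and Igf1 was not (adjusted p = 0.0891). The same held for refeeding averaged over the 4 genotypes (Igfals 0.86 ± 0.19, adjusted p = 0.00195; Igf1 adjusted p = 0.0954). Between genotypes Igfals moved as follows. It fell in LIRKO, with differences of -1.53 ± 0.35, -1.89 ± 0.32 and -1.52 ± 0.37 in the fasted, refed and glucose states and was higher in LIRFKO than in LIRKO by 1.94 ± 0.37, 1.61 ± 0.32 and 2.18 ± 0.37 (adjusted p at most 0.0093). Ghr, the growth hormone receptor, fell in LIRKO, with differences of -1.55 ± 0.27, -1.38 ± 0.25 and -0.94 ± 0.29 (adjusted p at most 0.0408). It was higher in LIRFKO than in LIRKO by 1.85 ± 0.29, 1.55 ± 0.25 and 1.38 ± 0.29 (adjusted p at most 0.00346). The partner subunit and the receptor for growth hormone thus fell together with Igf1, while the carrier genes Igfbp3 and Igfbp5 were not called.

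Irs2, a receptor substrate, went with Igfbp1 and Igfbp2. It was higher in LIRKO by 1.05 ± 0.29, 1.99 ± 0.26 and 2.62 ± 0.30 and lower in LIRFKO than LIRKO, with differences of -1.002 ± 0.30, -1.38 ± 0.26 and -1.90 ± 0.30, each written in the order fasted, refed, glucose (adjusted p at most 0.0442). On refeeding it fell by 1.24 ± 0.26 in IR floxed (adjusted p = 0.0073) and by 1.05 ± 0.30 in IR/FoxO1 floxed mice (adjusted p = 0.049). Socs3, an inhibitor of cytokine and growth hormone signalling, was higher in fasted LIRKO by 1.34 ± 0.27 (adjusted p = 0.0025). Adamts1, an extracellular protease, was higher in fasted LIRKO by 0.88 ± 0.25 (adjusted p = 0.0289).

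Over the 25 axis genes, LIRKO against IR floxed gave 3 higher and 4 lower when fasted, 1 and 4 when refed, and 2 and 4 after glucose, where 8.06%, 11.6% and 8.3% of all genes were called, with medians of 0.04, 0.07 and 0.02 log2 beside medians of 0.00 over all genes. The 4 lower genes were Igf1, Igfals, Ghr and Insr in each state. Insr is the gene deleted by design, so its place in these counts is no finding about the axis. LIRFKO against LIRKO gave 3 higher and 1 lower when fasted, 3 and 1 when refed, and 3 and 4 after glucose, beside 6.52%, 8.09% and 7.57% of all genes. The 3 higher genes were Igf1, Igfals and Ghr in each state. LIRFKO against its own floxed controls gave 0 of 25 when fasted (0.00445% of all genes) and 1 lower when refed (0.378%), which was the deleted gene Insr. The 7 binding proteins had medians of 0.14, 0.10 and -0.01 for LIRKO against IR floxed, with 2 of the 7 called in each state.

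Among 13 other genes whose proteins carry an IGFBP-type domain, few were called. Kazald1 was lower in fasted LIRKO than IR floxed livers (-0.50 ± 0.09, adjusted p = 0.00074). It was higher in LIRFKO than LIRKO by 0.39 ± 0.10 fasted (adjusted p = 0.0121) and 0.46 ± 0.10 after glucose (adjusted p = 0.00295). Crim1 was 0.44 ± 0.13 higher in refed LIRKO than IR floxed livers (adjusted p = 0.0207). Ccn2, a matrix protein, fell by 2.30 ± 0.45 on refeeding in LIRKO mice (adjusted p = 0.00523). Its refed mean was below its fasted mean in all 4 genotypes, and the refeeding difference averaged over them was -1.37 ± 0.23 (adjusted p = 0.000122). The other 10 were called in none of the 24 comparisons.

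The genes whose group means ran most like a member's were sought among 11241 genes above the median level, by Pearson r over the 11 group means. For Igfbp1 they were B930025P03Rik (r = 0.96), Fst (r = 0.95), which encodes follistatin, and Cstf2t (r = 0.94). For Igfbp2 they were Rps27a-ps2 (r = 0.96), Gm20564 (r = 0.96) and Rpl5-ps1 (r = 0.96). For Igfbp4 they were Pmpcb (r = 0.95), Tef (r = 0.94) and Pdp2 (r = 0.93), and for Igfbp6 they were Msln (r = 0.97), Vasn (r = 0.91) and Chil3 (r = 0.90). With 11 points that share arrays and control groups, these values describe likeness only, and the Igfbp1 means include the LIRKO groups at the top of the range.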

How the data were processed

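Liver RNA (200 ng per sample, per the labels) was read on two-colour Agilent arrays, and each dye channel is a sample. The deposited values are log2 intensities. R 3.1.0 and limma 3.20.1 are named in the submitters' processing notes. How background and arrays were normalized is not given in the sources. Column medians were 5.72 to 5.78. Detection calls were not used here, and precision is limited by the 3 or 4 mice of a group. Of 45220 features, 33026 paired with 1 gene through the platform annotation, 0 with several and 12194 with none.

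A linear model in limma 3.58.1 (R 4.3.3, statmod 1.5.0) held 1 mean per group and a dye term, with the array as random block at a correlation of 0.358. Nothing was filtered or rescaled. 24 comparisons were tested, and 2 averages over genotypes were added after the values were seen. Groups follow titles, and IRF.KO_GTT_724, whose labels conflict on treatment, was left out. On simulated data for refed LIRKO against IR floxed mice over 22485 genes, 97% of changes of 1 log2 were recovered. The changed genes were drawn at random, and both groups held 4 mice. This share need not hold for groups of 3 mice or for members of wide spread, such as Igfbp1 (SE 0.68 in that comparison).

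Named genes were all 7 members, called genes of the IGF axis and IGFBP domain lists (up to 4 of smallest p per list and comparison, with Igf1, Igfals, Igf2, Ghr, Insr and Foxo1 always), and the 3 genes most like each member whose group means span over 1 log2. The members and all lists were chosen with earlier results of these data known. Alternatives were slide as a fixed term, no dye term, only the groups compared, mean of all probes, quantile normalization, genes above the median level, no mouse IRF.fl_Fast_523, and each mouse left out in turn.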

Additional observations from a re-analysis of the deposited data

Results flagged for a closer look

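In refed LIRFKO mice Igfbp4 read 12.02 in mouse IRF.KO_Refed_524, apart from the other 3 mice at 11.61 to 11.68. In refed IR floxed mice Igfbp6 read 6.05 in mouse IR.fl_Refed_562, apart from the other 3 mice at 7.20 to 7.40. These are the 2 outlying values among 28 sets tested with Dixon's 95% limits, and chance alone marks about 1 in 20 sets. Each set is 1 member in 1 group of 4 mice, so the sets of a group share the same mice. The effect of the knockout in refed mice differed between LIRFKO and LIRKO for Igfbp1, by -4.22 log2 with LIRKO at the top of the range, and for Igfbp2, by -2.27 log2 (limma, adjusted p = 0.0286 and 0.000175).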

How the results depend on the processing

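No member's called change turned its direction under any alternative. With only the groups compared in the fit, at the array correlation of the whole fit, the number of members called was 0 in place of 1 for refeeding in IR floxed mice (Igfbp1, -3.41, adjusted p = 0.112) and for glucose in LIRKO mice. It was 1 in place of 2 for fasted LIRKO against IR floxed and fasted LIRFKO against LIRKO, and 0 in place of 2 for both comparisons after glucose. With no dye term it was 0 in place of 1 for refeeding in IR/FoxO1 floxed mice, and 1 in place of 2 for LIRKO against IR floxed fasted and after glucose, for fasted LIRFKO against LIRKO, and for the refed knockout effect. With slide as a fixed term it was 1 in place of 2 for the refed knockout effect. The average glucose response called 2 members in place of 1 with slide as a term or with only genes above the median level (Igfbp6, adjusted p = 0.0474 and 0.048). Quantile normalization, the mean of all probes and leaving out mouse IRF.fl_Fast_523 moved no count of members by over 1.5 times.

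With 1 mouse left out in turn, the number of members called ran from 0 to 1 for refeeding in IR/FoxO1 floxed mice and glucose in LIRKO mice, and from 1 to 2 for refeeding in IR floxed mice, LIRKO against IR floxed fasted and after glucose, fasted LIRFKO against LIRKO, the refed knockout effect and the average glucose response. It ran from 1 to 3 for LIRFKO against LIRKO after glucose, and stayed at 2 for refed LIRKO against IR floxed and refed LIRFKO against LIRKO. Restricting the test to genes above the median level raised the share of all genes called, from 11.6% to 22.3% for refed LIRKO against IR floxed and from 3.61% to 8.29% for refeeding in IR floxed mice. Only the groups compared lowered it, from 8.06% to 2.48% for fasted LIRKO against IR floxed and from 3.61% to 0.614% for refeeding in IR floxed mice. No paired analysis was possible because the mouse numbers differ between all groups.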

Other observations

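The sample IRF.KO_GTT_724, which entered no comparison, read 13.12 for Igfbp1, 13.06 for Igfbp2, 7.25 for Igfbp3, 11.64 for Igfbp4, 6.11 for Igfbp5, 7.74 for Igfbp6 and 6.52 for Igfbp7.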
